A study of Bos indicus with 12 samples.

Results

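Chromosomes 18, 19 and 25 are short autosomes of the cattle genome, and they had the most covered CpGs per Mb of the 29 autosomes. All rows of the deposited reduced representation bisulfite sequencing (RRBS) table that lie on them were taken, which gave 38893, 43564 and 32184 CpGs, or 114641 of 635469 in the table and 18.2% of the 629700 on the 29 autosomes. Each strand of a CpG is a row of its own. Percent methylation is the share of reads that called the cytosine methylated. Measured was *longissimus thoracis* skeletal muscle, taken at slaughter, of 12 Nelore (*Bos indicus*) steers that were kept in feedlots on the same ration. They were 6 Tough animals, with higher shear force and lower tenderness, and 6 Tender animals, with lower shear force and higher tenderness, chosen as extremes of the breeding value for that trait. The labels give no allele, drug or diet that separates the groups, and 1 library was made per animal. Whole muscle holds fibres, connective tissue, fat, vessels and blood cells, and a difference in methylation cannot be told apart from a difference in the share of these cells.

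DNA methylation in mammals falls mainly on cytosines followed by guanine. Most of these CpGs are methylated, whereas those packed into CpG islands, which often lie at gene starts, are mostly free of it. RRBS cuts the DNA with *Msp*I at CCGG and reads short fragments, so it samples CpG-dense sequence and the start of many genes more than open intergenic sequence. A small chromosome with many genes can therefore give many covered CpGs per Mb, although gene content was not tested here. A percentage in the middle of the range at 1 CpG means that some reads called it methylated and others did not. Mixed cells or alleles can give such a value, and counting error adds to it.

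Coverage was close between the animals and the chromosomes. Scaled coverage summed over the table was 18399401 to 23470740 per animal, of which 3359104 to 4309594 fell on chromosomes 18, 19 and 25, and the median per CpG was 25 to 33.0 there. Counting error alone gives a percentage near 50% a standard error of 10 at the lowest of these medians and 15.8 at the minimum coverage of 10. By the study's unmethylated spike-in, bisulfite conversion fell into a higher group (Tough 2, 5 and 6, Tender 8 and 11) and a lower group (the other 7 animals), and values by this split stand beside the results it touches.

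The covered CpGs of chromosome 25 numbered 760.9 per Mb between the first and the last covered position. Chromosome 19 had 687.0 and chromosome 18 had 591.6 per Mb, and these 3 values were the highest of the 29 autosomes. The other 26 autosomes together had 222.7 per Mb, with a median of 218.4 and a range from 116.8 on chromosome 1 to 440.8 on chromosome 29. Thus the least dense of the 3 lay above the densest of the rest, and the order stayed 25, 19, 18 when both strands of a CpG were merged (657.3, 590.1 and 510.8 against at most 385.6 elsewhere) and at a coverage of at least 20 in every animal (208.4, 201.8 and 179.1 against at most 117.9).

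High density did not go with one level of methylation. Averaged over CpGs and animals, methylation was 30.5% on chromosome 18, 24.6% on chromosome 19 and 32.3% on chromosome 25, against 29.7% on the other autosomes. In the order of the 29 autosomes from the highest level, these were ranks 14, 27 and 9. Chromosome 19 lay near the low end, where chromosome 7 was lowest at 23.1%, and chromosome 25 lay below chromosome 27, the highest at 36.3%.

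**Figure D1:**
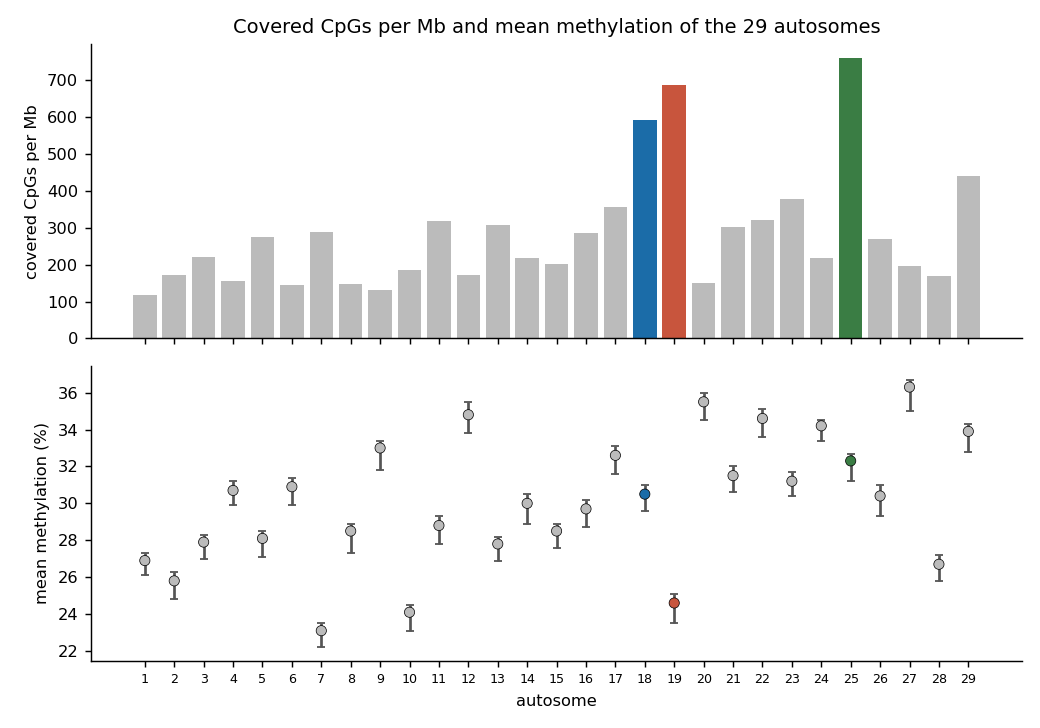
Covered CpGs per Mb (upper panel, bars from 0) and mean methylation in percent (lower panel, points with lines from the lowest to the highest of 12 animals) of the 29 autosomes, with chromosome 18 in blue, 19 in red and 25 in green. The 3 coloured bars, 591.6, 687.0 and 760.9 per Mb, stand above the 440.8 of chromosome 29, while the 3 coloured points, 30.5%, 24.6% and 32.3%, are spread through the range of the others.

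The same holds animal by animal. Chromosome 18 exceeded the mean of the other autosomes by 0.755 to 1.08 percentage points in 12 of 12 animals, with a mean difference of 0.857 ± 0.0895 (SD, n = 12). Chromosome 25 exceeded it by 2.51 to 2.72 in all 12, with a mean of 2.61 ± 0.0675 (SD, n = 12). On chromosome 19 every animal lay below it, by -5.17 to -4.97, with a mean of -5.08 ± 0.066 (SD, n = 12). In an exact two-sided sign-flip test over the 12 animals, each gave p = 0.000488, the smallest it allows, and an adjusted p of 0.000506 over the 29 autosomes. Such a difference was common, since 28 of 29 autosomes (96.6%) passed this test.

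The small excess of chromosome 18 turned with the weighting. With methylated reads pooled over CpGs, so that deeper CpGs counted more, chromosome 18 was lower than the other autosomes by -0.776, and with CpGs of at least 20 in every animal by -3.36. At that coverage chromosome 25 was also slightly lower, by -0.196, whereas chromosome 19 stayed lower in each setting. Chromosome 19 went from -5.08 to -6.51 with pooled reads and -7.33 at that coverage, so all 3 moved downward relative to the rest.

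The CpGs were then split by depth. On the other 26 autosomes, CpGs with at least 20 in every animal averaged 33.7%, and those with less 28.2%, a difference of 5.54 ± 0.0612 (SD, n = 12). On chromosome 18 the deep CpGs averaged 30.3% and the rest 30.6%, a difference of -0.287 ± 0.162 (SD, n = 12). The rise with depth was 1.67 on chromosome 25 and 2.52 on chromosome 19, which placed the 3 chromosomes at ranks 2, 3 and 5 from the smallest of 29. Only chromosome 29 had a lower value than chromosome 18, -0.586, while the other autosomes had a median of 6.28 and reached 11.8 on chromosome 24. These classes were chosen after the data had been seen, and the values are a description.

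By level, nearly unmethylated CpGs were the largest class on each chromosome. A mean under 5% over the 12 animals was found at 49.0% of CpGs on chromosome 18, 57.3% on chromosome 19 and 49.5% on chromosome 25, against 52.6% on the other autosomes, whose own range was 45.5% to 60.7%. Means of 20 to 80% made up 20%, 16.5% and 19.2% against 17.5%. Means above 90% made up 13.0%, 10.3% and 15.1% against 13.7%. Chromosome 18 was therefore rich in intermediate CpGs, ranking 3 of 29 autosomes, chromosome 19 had a high share of nearly unmethylated CpGs (rank 4) and a low one of highly methylated ones (rank 28), and chromosome 25 held more than the average of both intermediate and high CpGs.

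Within each chromosome, methylation fell as the covered CpGs drew together. Each covered cytosine was classed by how many covered cytosines, itself included, lay within 50 bases on either strand. Those with more than 10 made up 23.6% of the CpGs of chromosome 18, 26.6% of chromosome 19 and 25% of chromosome 25, against 22.0% elsewhere, and chromosome 19 had the highest share of all 29 autosomes. On the other autosomes mean methylation went from 59.9% with 1 to 2 covered cytosines to 40.8% with 3 to 5, 18.8% with 6 to 10 and 6.61% with more than 10. Chromosome 19 went from 55.2% to 37.1%, 17.3% and 4.57%, so it lay below the others in each class.

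Chromosome 18 was flatter. It started lower, at 54.0% with 1 to 2 covered cytosines, met the other autosomes at 40.8% with 3 to 5, and lay above them at 22.9% with 6 to 10 and 12.3% with more than 10. The difference from the other autosomes was -5.98 ± 0.199 (SD, n = 12) in the sparsest class and 5.72 ± 0.133 (SD, n = 12) in the densest. Chromosome 25 was lower in the sparsest class, with 57.8%, and higher in the other 3, with 47.7%, 25.3% and 8.31%. The exact sign-flip test gave p = 0.000488 for each of these 12 differences but that of chromosome 18 with 3 to 5 covered cytosines, 0.0404 ± 0.124 (SD, n = 12), where p = 0.298. Adjusted over the 4 classes of all autosomes, the values were 0.000534 and 0.306. Such differences were the rule, since 111 of the 116 tests (95.7%) passed and 106 reached the smallest p. With the 4 classes weighted as they occur on the other autosomes, the differences of the whole chromosomes became 1.53, -2.83 and 4.11 (this weighting was chosen after the data had been seen).

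**Figure D2:**
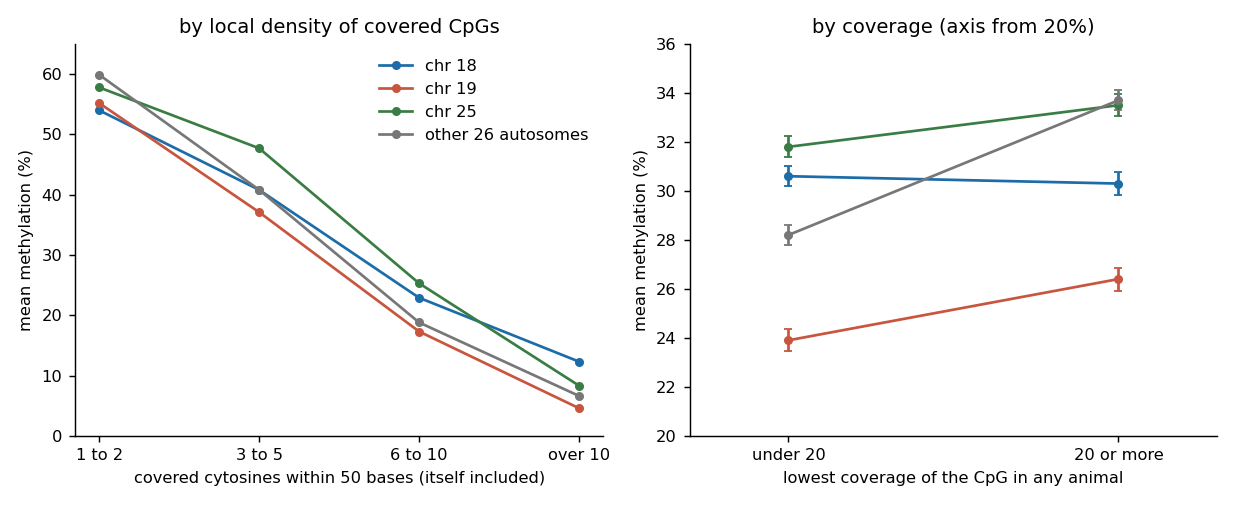
Mean methylation in percent of chromosomes 18, 19 and 25 and of the other 26 autosomes, by the number of covered cytosines within 50 bases (left) and by the lowest coverage of the CpG in any animal (right, axis from 20%, bars are the SD over 12 animals). The line of chromosome 18 ends highest on the left, at 12.3%, and on the right it alone of the 4 falls, from 30.6% to 30.3%.

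The share of densely packed CpGs that carried methylation differed between the 3. Of the 9174 CpGs of chromosome 18 with more than 10 covered cytosines nearby, 1381 (15.1%) had a mean above 20%, compared with 612 of 11585 (5.28%) on chromosome 19, 814 of 8057 (10.1%) on chromosome 25 and 7.7% on the other autosomes. The last megabase bin of chromosome 18, from 65000001 (ARS-UCD1.2), held 269 of them, 19.5% of the chromosome's total and 50.2% of the dense CpGs in that bin, which averaged 42.6%. The 5 bins with the most held 48.4% of such CpGs on chromosome 18, 37.3% on chromosome 19 and 58.0% on chromosome 25, while the same bins held 26.1%, 15.6% and 43.9% of all dense CpGs. On chromosome 25 the leading bins were megabase 42, with 167 (21.8% of its dense CpGs), and megabase 1, with 108 (12.1%, near the 10.1% of the chromosome).

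Neighbouring CpGs were also joined into runs. A run was at least 20 successive covered cytosines, each within 200 bases of the next, all with a mean under 5% or all above 90%. Runs under 5% numbered 223 on chromosome 18, 315 on chromosome 19 and 217 on chromosome 25 and held 17.7%, 22.6% and 20.8% of their CpGs, against 17.9% elsewhere. Chromosomes 19 and 25 thus lay above the pooled share of the other autosomes, and chromosome 18 next to it. Single autosomes elsewhere were not compared in this share, and the longest run under 5% elsewhere held 126 cytosines, on chromosome 7. The longest were 85 cytosines over 712 bases at chr18:13036632-13037343, 94 over 1175 bases at chr19:17695915-17697089, and 86 over 508 bases at chr25:41819071-41819578. Runs above 90% were few, with 4 on chromosome 18 and 1 each on chromosomes 19 and 25, which held 0.257%, 0.0459% and 0.0684% of their CpGs, against 0.0683% in 14 runs elsewhere. The longest of them, 29 cytosines over 454 bases at chr18:65717088-65717541, again lay in the last megabase of chromosome 18.

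Along the chromosomes, the covered CpGs were distributed unevenly, and each of the 3 had its own profile. Bins of 1 Mb with more than 1000 CpGs made up 14 of 66 on chromosome 18 (21.2%), 16 of 64 on chromosome 19 (25%) and 13 of 43 on chromosome 25 (30.2%), against 79 of 2328 (3.39%) elsewhere. The median bin held 400 CpGs on chromosome 18, 541 on chromosome 19 and 295 on chromosome 25, against 112.5. Chromosome 25, the densest as a whole, therefore had the lowest median of the 3, and 65.5% of its CpGs lay in 10 bins. The means and SDs of single bins given next are those of bins with at least 50 CpGs, since means of emptier bins rest on few sites and some were higher.

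Chromosome 25 was loaded at both ends. Its first 4 Mb held 9785 CpGs, 30.4% of the chromosome, at 2446 per Mb and a mean methylation of 28.0%. Its last 10 Mb held 44.7%, at 1439 per Mb and 36.1%, and the 29 bins between them 276.3 per Mb and 30.7%. The bins with the most CpGs were megabase 42 with 3364, megabase 2 with 3243 and megabase 1 with 2865. Of the bins with at least 50 CpGs, the highest mean, 64.4%, was in megabase 40, where 930 CpGs were covered and 12.5% were under 5%. The lowest, 6.77%, was in megabase 20, where 88.5% of 208 CpGs were under 5%.

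Chromosome 19 started almost empty, with 46 CpGs in its first 4 Mb. Its middle had 708 CpGs per Mb with a mean of 21.5%, of which 61.0% were under 5%. The last 10 Mb had 811.7 per Mb and a mean of 37.8%, with 41.4% under 5%. Of the bins with at least 50 CpGs, megabase 60, with 125 CpGs and none under 5%, had the highest mean of the 3 chromosomes, 79.5%, followed on chromosome 19 by megabase 63 with 62.7% over 816 CpGs. The fullest bins, megabases 28, 52 and 35 with 2035, 1995 and 1959 CpGs, lay at 20.3%, 17.6% and 24.3%. The lowest was megabase 47, at 8.09% over 223 CpGs.

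Chromosome 18 was filled toward its far end, where megabases 57, 54 and 63 held 2432, 2082 and 2010 CpGs with means of 33.2%, 23.2% and 28.4%. Its last 10 Mb had 1003 CpGs per Mb and a mean of 33.1%, against 524.9 and 29.6% in the middle. The highest means of bins with at least 50 CpGs were those of megabase 34 with 71.2% over 61 CpGs and megabase 6 with 66.7% over 376 CpGs. The lowest was megabase 22, with 11.8% over 266 CpGs. Over bins with at least 50 CpGs, Spearman's rho between the number of CpGs and the mean level was -0.0722 on chromosome 18 (58 bins), -0.34 on chromosome 19 (58 bins) and -0.326 on chromosome 25 (41 bins), against 0.055 over 1613 bins elsewhere. Bins of 1 chromosome share libraries and neighbouring sequence, so this is a description.

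**Figure D3:**
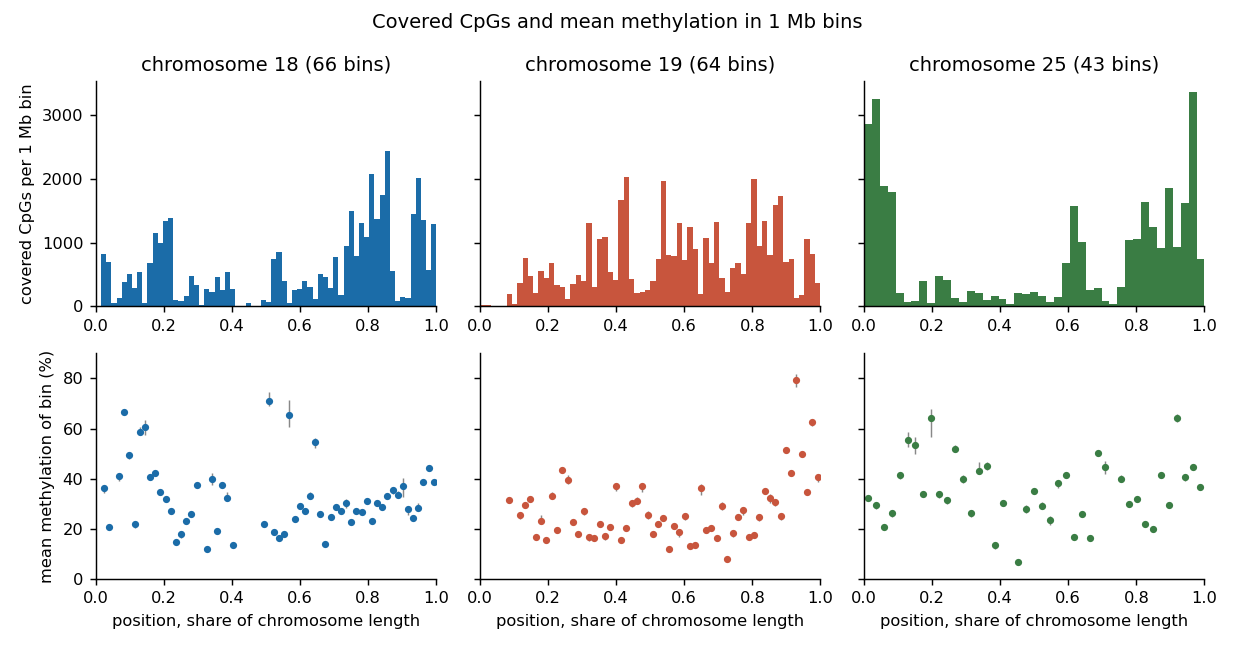
Covered CpGs per 1 Mb bin (upper panels) and mean methylation in percent of bins with at least 50 CpGs (lower panels, lines from the lowest to the highest of 12 animals), against the position as a share of the chromosome's length. Chromosome 25 peaks at both ends, up to 3364 CpGs in a bin, chromosome 19 is nearly empty at its start and reaches 79.5% near its end, and chromosome 18 is fullest toward its far end, up to 2432.

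The animals differed little in these profiles. The median SD between the 12 animals of a bin mean was 0.644 percentage points on chromosome 18, 0.623 on chromosome 19 and 0.646 on chromosome 25, against 0.757 elsewhere, where bins held fewer CpGs. Among bins with at least 50 CpGs, to which these medians also refer, the largest were 3.16 in megabase 38 of chromosome 18 and 3.01 in megabase 9 of chromosome 25, whose animals ranged from 60.5% to 71.4% and from 56.8% to 67.8%. These bins rested on 56 and 57 CpGs. The largest such value on chromosome 19 was 1.47, in megabase 60.

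At single CpGs the spread was that of the rest of the genome. For CpGs with a mean of 20 to 80%, the median SD between animals was 13.9 on chromosomes 18 and 19 and 14.1 on chromosome 25, against 14.2, where binomial counting alone would give 9.04, 9.01 and 9.12. The overdispersion factor, the spread of reads within groups relative to binomial, had a median of 1.66, 1.5 and 1.59 over all CpGs, against 1.58. CpGs that were at or under 5% in at least 1 animal and at or above 95% in another numbered 119, 110 and 129, or 0.306%, 0.253% and 0.401%, against 0.372%. Chromosome 19 ranked 28 of 29 autosomes for this share.

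Mean methylation of chromosome 18 in the Tough animals was 29.6% at the lowest, 30.4% at the median and 30.8% at the highest, and in the Tender animals 30.4%, 30.8% and 31.0%. On chromosome 19 the means were 24.4% ± 0.513 (SD, n = 6) and 24.8% ± 0.256 (SD, n = 6), and on chromosome 25 they were 32.1% ± 0.491 (SD, n = 6) and 32.5% ± 0.216 (SD, n = 6). The groups overlapped on each chromosome. Tough 2, 5 and 6 had the 3 lowest values on all 3 chromosomes and on the rest, in that order, and Tender 11 the next, and all 4 belonged to the higher conversion group. Its other member, Tender 8, lay higher, at ranks 7, 11 and 10 from the lowest of 12 on the 3 chromosomes and 9 on the rest.

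Tender minus Tough was 0.41 percentage points on chromosome 18, 0.452 on chromosome 19 and 0.447 on chromosome 25. Exact permutation of the 12 animals between the groups, two-sided and unable to go below 0.00216, gave p = 0.113, 0.0779 and 0.0584, and an adjusted p of 0.173 each over the 29 autosomes. The difference was positive on 29 of 29 autosomes, from 0.237 to 0.566, and 1 of them (3.45%) had an unadjusted p under 0.05. Relative to the other autosomes, the difference on chromosomes 18, 19 and 25 was 0.0102, 0.0529 and 0.0472 (exact permutation p = 0.87, 0.173 and 0.245). With pooled reads the differences were larger, at 1.11, 1.3 and 1.33 (adjusted p = 0.224 each in the exact permutation test), and relative to the other autosomes 0.063, 0.255 and 0.286. Within the higher conversion group (3 Tough and 2 Tender animals) it was 0.619, 0.682 and 0.647, and within the lower group (3 and 4 animals) 0.116, 0.146 and 0.172.

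The difference was largest at intermediate CpGs. For CpGs with a mean of 20 to 80%, chromosome 18 had 49.7%, 51.1% and 51.7% as the lowest, median and highest Tough values and 51.3%, 52.0% and 53.3% in Tender. Chromosome 19 had 48.2%, 50.2% and 50.9% in Tough and 50.0%, 51.0% and 53.1% in Tender. Chromosome 25 had 50.0%, 51.9% and 52.2% in Tough and 51.8%, 52.8% and 54.4% in Tender. The groups overlapped each time.

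For these intermediate CpGs, Tender minus Tough was 1.14, 1.28 and 1.36 percentage points on the 3 chromosomes, with an exact permutation p of 0.026, 0.0628 and 0.0152 and an adjusted p of 0.188, 0.246 and 0.188 over 87 tests (29 autosomes in 3 classes). Of the 29 autosomes, 19 (65.5%) had an unadjusted p under 0.05 in this class, and none an adjusted one. Within the higher conversion group the differences were 1.95, 2.45 and 2.02, and within the lower group 0.572, 0.517 and 0.923. CpGs under 5% differed by 0.0797, 0.116 and 0.0756, and those above 90% by 0.0912, 0.262 and 0.0768, with adjusted p-values from 0.953 to 0.967.

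The lowest class followed bisulfite conversion. The share of CpGs under 5% in an animal was 49.8% to 51.5% on chromosome 18 in the 5 animals of the higher group and 46.2% to 47.6% in the 7 of the lower group. On chromosome 19 the shares were 58.0% to 59.5% and 54.2% to 55.0%, and on chromosome 25 they were 49.9% to 51.5% and 47.0% to 47.9%. The conversion groups did not overlap on these chromosomes, nor on the other autosomes (53.0% to 54.5% and 49.5% to 50.5%). The mean level of the CpGs under 5% was 0.747% to 0.875% in the higher and 1.42% to 1.57% in the lower group on chromosome 18. For the chromosome and class means, the part of conversion in the differences between Tough and Tender was not tested beyond the values within each group. Single CpGs and 1 Mb bins were also fitted with the conversion group as a covariate, as given below.

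**Figure D4:**
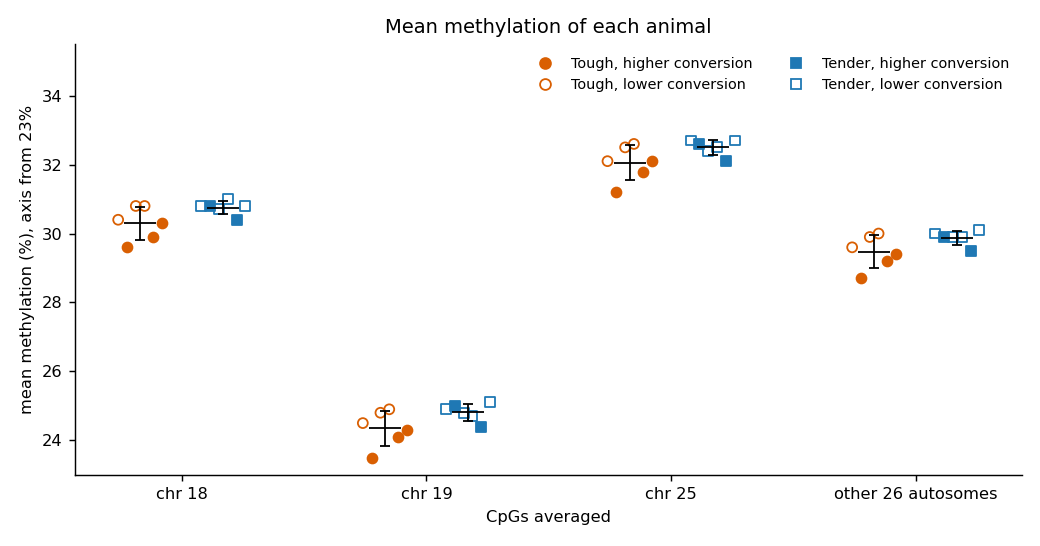
Mean methylation in percent of each animal (axis from 23%) on chromosomes 18, 19 and 25 and the other 26 autosomes, Tough as circles and Tender as squares, filled for higher and open for lower bisulfite conversion, with the group mean ± SD in black. The groups overlap in each column, and the 3 lowest points of each are the filled circles of Tough 2, 5 and 6.

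In the 1 Mb bins, limma made no call. Of 157 bins with at least 50 CpGs on the 3 chromosomes, 0 had an adjusted p under 0.05 (0.0% of all 1770 bins did), the lowest being 0.504. At an unadjusted p under 0.05 there were 13 (8.28%), against 133 (7.51%) of all bins, and all 13 were higher in Tender, as were 129 of the 133. Tender was higher in 87.9% of the bins of chromosome 18, 91.4% of chromosome 19 and 78% of chromosome 25, compared with 77.3% of the bins elsewhere. The median SE of a bin's difference was 0.382, 0.366 and 0.392 there and 0.424 elsewhere. All bins come from the same 12 animals, so these shares are a description. The largest bin of chromosome 25, megabase 42, was among the 13, with a difference of 0.871 ± 0.297 (SE) and an adjusted p of 0.524 in limma.

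At single CpGs, a differentially methylated cytosine (DMC) had an adjusted p under 0.05 in an overdispersion-corrected logistic model over the whole table and a pooled difference above 25%. There were 25 on the 3 chromosomes, 11, 8 and 6 in their order, or 0.0218% of their CpGs, against 121 in the whole table (0.019%) and 0.0183% on the other autosomes. Of the 25, 15 were higher in Tender (0.0132% of the whole table were) and 10 in Tough (0.00582%). An unadjusted p under 0.05 was found at 8.49%, 8.43% and 8.16% of the CpGs of chromosomes 18, 19 and 25, and at 8.29% of the whole table. These shares lay near those of the whole table.

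In 12 of the 25 the groups did not overlap, which in the whole table was the case at 613 CpGs (0.0965%) and on the 3 chromosomes at 101 (0.0881%). The annotation supplied with the study places 14 in intergenic sequence, 7 in introns and 4 in exons, and 4 in CpG islands and 6 in shores. Covered neighbours within 50 bases on the same strand existed for 23, and their mean difference had the sign of the DMC at 20 and was more than 50% of its size at 4. Such neighbours can lie on the same reads of the same animals, so they are not independent of the DMC. Leaving out each animal in turn, DMC45, DMC48, DMC51 and DMC81 passed in all 12 fits and 12 of the 25 in fewer than 6. Among these 12 were DMC44, DMC46, DMC47, DMC50, DMC53, DMC54, DMC61, DMC62, DMC82, DMC83 and DMC84. Because these sites were selected for their difference, their values are given as a description. Names follow the study's numbering and positions are on ARS-UCD1.2.

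On chromosome 18, 5 DMCs were higher in Tough and 6 in Tender. DMC45, at 13773211 in a shore within an intron of *ZFPM1*, which encodes a partner of GATA transcription factors, had 66.7%, 79.5% and 85.0% as the lowest, median and highest Tough values and 32.4%, 53.6% and 66.7% in Tender. The groups touched at 66.7%, and the pooled difference was -32.5% (adjusted p = 0.00554 in the logistic model). DMC44, at 12025812 in an intron of *LOC112442266*, had 55.0% to 73.1% in Tough and 16.7% to 57.1% in Tender, with all 6 neighbours lower in Tender by a mean of -9.49%. DMC48 near *C5AR2*, a receptor for the complement fragment C5a, and DMC46 near *NLRC5*, a regulator of MHC class I genes, differed by -32.4% and -29.6%.

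Between 55299264 and 56263782 of the same chromosome, 5 DMCs lay within 1 Mb, a stretch singled out after their values were seen, and all were higher in Tender. DMC49 lay in the promoter and an exon of *NTN5*, a member of the netrin family of guidance proteins. Its Tough values were 0%, 15.5% and 36.4% and its Tender values 35.3%, 59.9% and 83.3%, with a pooled difference of 41.1% (adjusted p = 0.0285 in the logistic model) and all 3 neighbours higher in Tender by 8.69% to 15.7%. DMC50 lay near *RASIP1*, which acts in endothelial vessel formation, and had 13.3% to 41.7% in Tough and 32% to 58.8% in Tender.

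DMC51, near *HSD17B14*, a hydroxysteroid dehydrogenase, was at 7.41%, 14.5% and 36.7% in Tough and at 33.3%, 51.1% and 66.7% in Tender, a pooled difference of 32.9% (adjusted p = 0.00485 in the logistic model). Tough 3 alone reached into the Tender range. In the RefSeq annotation of another *Bos indicus* assembly, used for gene order only, *FGF21* and *BCAT2* precede *HSD17B14*. *FGF21* encodes a metabolic hormone and *BCAT2* the mitochondrial aminotransferase of branched-chain amino acids.

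DMC52 and DMC53 lay near *NUP62*, a nuclear pore protein, between *IL4I1*, an amino acid oxidase of immune cells, and *ATF5*, a stress-responsive transcription factor. At DMC52 Tough 2 and 6 had 0%, Tough 5 had 31.4%, Tough 1 had 48.1%, Tough 3 had 51.4% and Tough 4 had 93.3%, while the 6 Tender animals had 94.9% to 100%. Its 5 neighbours differed by -5.23% to 2.8%, so only this cytosine stood apart. At DMC53 5 Tough animals had 0% and Tough 4 had 16.7%, and the Tender animals ranged from 22.2% to 100%. The overdispersion factors of 8.6 and 4.86 at these sites were far above the median of 1.66.

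DMC54, near *TRIM28*, a corepressor that maintains methylation at imprinted genes, showed the opposite picture at 65763739, close to the end of chromosome 18. All 6 Tough animals had 100%, and Tender 8 and 12 did as well, whereas Tender 11 had 17.2%, Tender 10 had 34.6%, Tender 9 had 45.5% and Tender 7 had 47.4%. The exact permutation test over the animals gave p = 0.0606, although the adjusted p of the logistic model was 0.0337. Its single neighbour differed by 2.61%, the other way. DMC47, in an intron of *DOK4*, a docking protein of tyrosine kinase signalling, had 5.56% to 21.4% in Tough and 20% to 57.1% in Tender.

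Chromosome 19 had 5 DMCs higher in Tender and 3 higher in Tough. DMC55, in an intron of *MPO*, the peroxidase of neutrophil granules, had 12.7%, 26.6% and 31.7% in Tough and 38.8%, 47.1% and 67.5% in Tender, without overlap, and a pooled difference of 26.7% (adjusted p = 0.00526 in the logistic model). DMC56, in a CpG island and an exon of *TBX2*, a T-box developmental regulator, had 11.1%, 20.7% and 33.3% in Tough and 34.6%, 46.6% and 66.7% in Tender, also without overlap. Of its 7 neighbours 5 were higher in Tender, with a mean difference of 4.85%.

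DMC57 near *KCNJ12*, an inward rectifier potassium channel, differed by 26.7%, and DMC59 near *LOC104975122* had 5.56% to 39.3% in Tough and 40.0% to 70% in Tender. The 3 higher in Tough, DMC60, DMC61 and DMC62, all lay in intergenic sequence near unnamed loci between 57269983 and 60943077. DMC60 had narrow groups, with Tough animals at 88.0% to 95.5% and Tender animals at 57.1% to 72.0% (adjusted p = 0.000114 in the logistic model). It and DMC57 were the only ones of the 25 called in the F-test alternative. Both had an overdispersion factor of 1, so they kept the chi-square test there, at adjusted p = 0.000183 and 0.0264.

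On chromosome 25, 4 of the 6 DMCs, which were selected for their difference, had no overlap between groups. Over all 32184 CpGs of the chromosome, this was the case at 32 (0.0994%). DMC81, in an exon and intron of *C25H16orf71*, had 85.2%, 93.9% and 100% in Tough and 50.0%, 64.6% and 80.6% in Tender, a pooled difference of -28.9% (adjusted p = 0.00212 in the logistic model), with all 3 neighbours lower in Tender by -26.7% to -6.87%. DMC85, in an intron of *TNRC18*, a chromatin-associated protein, had 92.5%, 96.7% and 100% in Tough and 47.7%, 70.3% and 80.8% in Tender. DMC84, in a shore and an exon of *GNB2*, a beta subunit of heterotrimeric G proteins, had 14.8%, 32.7% and 57.9% in Tough and 59.3%, 69.0% and 90.9% in Tender, although its 1 neighbour differed by 1.81%.

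DMC82 and DMC83 lay in CpG islands, and all of their covered neighbours shared their direction. DMC82, near *LOC101902665* at 27006198, had 14.3%, 20.5% and 37.5% in Tough and 28.1%, 50.4% and 64.7% in Tender. All 11 covered neighbours were higher in Tender, by 3.51% to 22.5% with a mean of 14.4%, and 8 of them had an unadjusted p under 0.05 in the logistic model. They can share reads with DMC82 and with each other, so these 11 are not separate evidence. DMC83, near *SLC5A2*, a kidney glucose transporter, differed by 35.0% and its 4 neighbours by a mean of 23.4%. In the logistic model with the conversion group as a covariate, DMC83 had an adjusted p of 0.0525. In the RefSeq gene order *ARMC5* and *TGFB1I1* precede *SLC5A2*. DMC80, in a shore near a caspase-14 gene, had 4.35%, 11.3% and 26.1% in Tough and 25%, 43.8% and 56.7% in Tender. When each animal was left out in turn, DMC82 passed in 5 of the 12 fits, DMC83 in 4 and DMC80 in 11.

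**Figure D5:**
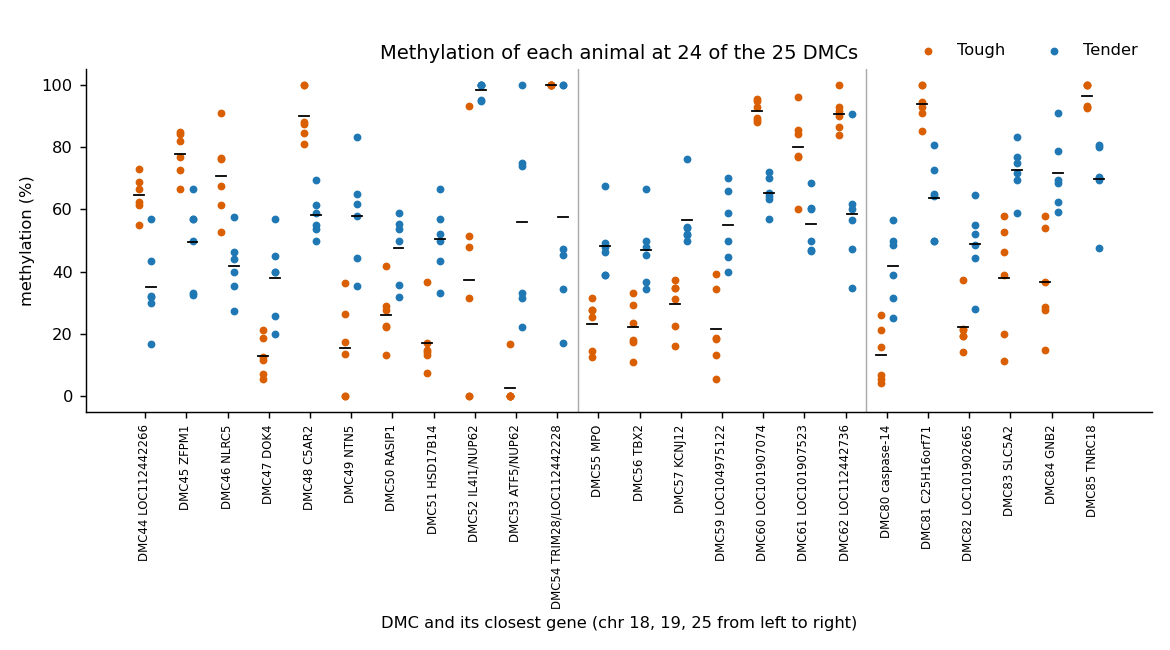
Methylation in percent of each Tough (orange) and Tender (blue) animal at 24 of the 25 DMCs of chromosomes 18, 19 and 25, with black lines at the group means and grey lines between chromosomes. Of the sites drawn, 14 are higher in Tender and 10 in Tough, 12 have no overlap, and DMC52, DMC53 and DMC54 have 1 group spread over most of the scale while the other is near 0% or 100%.

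The calls depended on the model. An F-test in place of chi-square at overdispersed CpGs left 0, 2 and 0 DMCs on chromosomes 18, 19 and 25, and limma on log2 ratios left 0 of 114641 (0 of 635469 in the table), with an unadjusted p under 0.05 at 4.93% of the CpGs here and 4.91% of the table. The F-test alternative called 9 in the whole table (0.00142%), and the 2 on chromosome 19, DMC57 and DMC60, had kept the chi-square test. Without the overdispersion correction there were 102, 94 and 76, or 272 of 1431 in the whole table (0.225%).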

How the data were processed

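RRBS libraries of 12 animals were made with the Premium RRBS kit and sequenced as single-end reads. Per the labels, the submitters' processing notes name FastQC 0.10.1, Trim Galore 0.4.1, Bismark 0.23.0, methylKit 1.8.1 and R 3.5.1, with ARS-UCD1.2 (bosTau9) as the build. The authors kept cytosines with a coverage of at least 10, removed those above the 99.9th percentile, scaled the coverage between animals and kept cytosines covered in all 12. The deposited values are a score, because the scaled and rounded coverage and methylated and unmethylated reads are no longer read counts, and in 0.562% of values the parts do not add up to the coverage. Such scaling leaves percentages nearly unchanged but gives the model the scaled depth. The design had assumed read counts, and its logistic model was kept because the methylKit analysis used these scaled values. For the aging time of the meat before the shear force test, the study's text has 14 days and the labels have 7.

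Chromosomes, lists and classes were chosen with earlier results of these data known. Percent methylation was averaged per animal over CpGs. Groups were compared by exact two-sided permutation tests and an autosome with the others by exact sign flips. Single CpGs were tested by a logistic model on group with the McCullagh and Nelder overdispersion factor (not below 1) and a chi-square test, adjusted by Benjamini-Hochberg over 635469 CpGs, and 1 Mb bins with at least 50 CpGs by limma 3.58.1 in R 4.3.3. In the F-test alternative, CpGs without overdispersion kept the chi-square test. The logistic model and permutation tests ran in Python 3.11.15 (pandas 2.3.3, scipy 1.17.1, numpy 2.4.6), and all were tested on simulated data. Conversion groups follow the study's spike-in, matched by animal number. Named bins were up to 3 per chromosome with the most CpGs, the highest and lowest mean and the largest SD; named sites were all DMCs but 1, which is counted but not reported here. DMC numbers, closest genes, locations and island classes come from the study's annotation. Gene order came from the RefSeq table of the NIAB-ARS_B.indTharparkar_mat_pri_1.0 assembly, in which 20 of 29 names matched. Promoters and sequences were not analysed here, since no genome or gene coordinates of ARS-UCD1.2 were used.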

Additional observations from a re-analysis of the deposited data

Results flagged for a closer look

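In groups of 6 animals, 1 animal was compared with the others of its group by Dixon's ratio for 156 groups behind the values of the report, and 11 (7.05%) passed. For normal values not selected on the data, about 1 in 20 would pass. The DMCs and named bins were selected on these data, some bins for the largest SD between animals. The share that passed can therefore not be read against that rate. At DMC51 (*HSD17B14*), Tough 3 was at 36.7%, the next Tough animal at 17.1%. At DMC53 (*ATF5*), Tough 4 was at 16.7% and the 5 others at 0%. At DMC82 (*LOC101902665*), Tough 5 was at 37.5%, the next at 21.7%. At DMC55 (*MPO*), Tender 8 was at 67.5%, the next at 49.3%. Tender 10 was at 76.2% at DMC57 (*KCNJ12*), with the next at 54.5%, and at 47.7% at DMC85 (*TNRC18*), with the next at 69.6%. Among 1 Mb bins on chromosome 18, Tough 6 was at 68.0% in megabase 6 (next 66.6%) and Tough 4 at 30.2% in megabase 63 (next 28.6%). Among those on chromosome 25, Tough 2 was at 56.8% in megabase 9 (next 63.9%), Tender 8 at 56.8% in megabase 7 (next 54.3%) and Tender 7 at 14.4% in megabase 17 (next 13.5%). No chromosome mean, class share or class mean of the 3 chromosomes passed.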

How the results depend on the processing

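The level of chromosome 18 against the other autosomes turned from 0.857 to -0.776 with pooled reads and to -3.36 at a coverage of at least 20, and that of chromosome 25 from 2.61 to -0.196 at that coverage. Leaving out 1 animal kept the 3 levels at 0.837 to 0.866, -5.09 to -5.07 and 2.6 to 2.62. Tender minus Tough stayed positive and above an adjusted p of 0.05 in every setting tested for the 3 chromosome means (the values within conversion groups had no test), with 1.11, 1.3 and 1.33 with pooled reads and 0.258 to 0.513, 0.283 to 0.564 and 0.282 to 0.545 when 1 animal was left out. Relative to the other autosomes, the difference of chromosome 18 was -0.00128 without Tough 4, -0.00868 without Tough 5 and -0.0326 without Tender 10 (-0.0326 to 0.0315 over the 12). Without Tough 2, the difference of CpGs under 5% on chromosome 18 was -0.00267 (range -0.00267 to 0.167) and that of CpGs above 90% was -0.0559 on chromosome 18 (-0.0559 to 0.174) and -0.0952 on chromosome 25 (-0.0952 to 0.163), where it was -0.00308 without Tender 10. None of these differences was called in any setting. The cause was not tested.

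On chromosomes 18, 19 and 25 in turn, DMCs numbered 0, 2 and 0 with the F-test alternative (9 in the whole table). They numbered 102, 94 and 76 without the overdispersion correction (1431). A coverage of at least 20, where fewer CpGs were tested, left 2, 2 and 1 (24). DMCs numbered 40, 32 and 21 at a difference above 10% (549) and 0, 0 and 0 with limma (0). Without 1 animal they numbered 6 to 16, 7 to 12 and 6 to 11. The count of chromosome 18 was 6 without Tough 6, and that of chromosome 25 was 11 without Tough 1 or Tender 7 and 10 without Tough 4 or Tender 12. With the conversion group as a covariate there were 29 on the 3 and 146 in the whole table. DMC61 and DMC83 were no longer among them, with an adjusted p of 0.0618 and 0.0525 in that logistic model. No bin of the 3 chromosomes was called in any of the settings.

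Merging strands gave 510.8, 590.1 and 657.3 CpGs per Mb. Shares under 5% were then 46.7%, 54.7% and 46.8%, those of 20 to 80% were 21.1%, 17.8% and 20.4%, and those above 90% were 13.6%, 11.1% and 16.0%. A coverage of at least 20 gave 179.1, 201.8 and 208.4 per Mb, shares of 55.0%, 17.5% and 11.2% on chromosome 19 and a middle share of 20% on chromosome 25. Planned tests of promoters were not run, since gene positions of the build were not used. No paired analysis was possible because the groups share no replicate numbers.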
